A study of Homo sapiens with 6 samples.

Results

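The cyclin-dependent kinase (CDK) inhibitors and the D-type cyclins were examined in BT-549 triple-negative breast cancer (TNBC) cells with NEAT1 silencing. The members were the 10 genes CDKN2A, CDKN2B, CDKN2C, CDKN2D, CDKN1A, CDKN1B, CDKN1C, CCND1, CCND2 and CCND3, chosen by symbol, and all 10 had a row among the 25545 genes of the expression table. Of these, 4 belong to the INK4 family, 3 to the CIP/KIP family and 3 are D-type cyclins. BT-549 is an established mesenchymal TNBC cell line, here grown in RPMI1640 with fetal bovine serum and insulin. One group was transfected with a control siRNA (CsiRNA) and the other with an siRNA against the NEAT1 long noncoding RNA (NEAT1siRNA), with 3 libraries in each group and RNA taken at 48 h. The labels write "tet-" in the titles of both groups but name no inducing agent, and the methods describe cultures in triplicate and lipid-based transfection. A single NEAT1siRNA was used and no rescue was sequenced, so that an effect of NEAT1 loss and an effect of that siRNA on other RNAs cannot be told apart. The comparison addresses which genes differ in these cells after transfection of this siRNA.

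Entry into S phase is governed by the phosphorylation of the retinoblastoma protein RB1. The D-type cyclins activate CDK4 and CDK6, which begin this phosphorylation, and cyclin E with CDK2 extends it, so that E2F factors are released. The INK4 proteins bind CDK4 and CDK6 and keep the D-type cyclins away, whereas the CIP/KIP proteins bind assembled cyclin-CDK complexes and block CDK2 in particular. In many breast cancers CCND1 is abundant, and loss of inhibitor genes or of RB1 is a common lesion.

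Expression is given as TPM, a share of all transcripts of a library that is corrected for transcript length and scaled to the same total in every library, so that levels of different genes can be set side by side. The groups were compared on log2(TPM + 1) with limma's moderated test for the 10721 genes with a mean of at least 1 TPM, and a gene was called at a Benjamini-Hochberg adjusted p under 0.05. Values of a group are always listed in the order of its replicates 1, 2 and 3. Fold changes on this scale understate the change of genes with few TPM. Of the members, 8 could be tested, since CDKN1C and CCND2 had a mean under 1 TPM. NEAT1 itself went from 10.6 ± 2.86 to 3.35 ± 0.885 TPM (SD, n = 3 each), a log2 fold change of -1.41.

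Among the 8 tested members, 5 were called changed, 4 higher and 1 lower in NEAT1siRNA cells. Over all genes tested, 14% were called, 4.99% with higher and 8.98% with lower expression. The genes that rose were the inhibitors CDKN2B, CDKN1B, CDKN2C and CDKN2D, and the gene that fell was CCND1. The median log2 fold change was 0.29 for the tested members and -0.044 for all genes tested. In 6 members every NEAT1siRNA value lay above the CsiRNA range, which held for 11% of all genes tested, and in 1 member, CCND1, every value lay below it, which held for 19.3%.

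The promoters of the called inhibitors with the largest changes are shown to place these genes and to let their sequences be compared. RefSeq promoters on GRCh38.p14 were found for 7 of the 10 members, as 12 windows, and CCND1, CCND2 and CDKN1C had no entry. The 250 bases before the start are printed 5′ to 3′ on the strand of the gene, for CDKN2B at chr9:22009306-22009555 (minus strand), CDKN1B at chr12:12717118-12717367 (plus strand) and CDKN2C at chr1:50969995-50970244 (plus strand). For CDKN2C this is 1 of 3 starts. Capitals mark the motifs that a search of both strands found, namely the GC box GGGCGG, the CCAAT box and the E-box CACGTG. Each was also sought as its reverse complement.
CDKN2B: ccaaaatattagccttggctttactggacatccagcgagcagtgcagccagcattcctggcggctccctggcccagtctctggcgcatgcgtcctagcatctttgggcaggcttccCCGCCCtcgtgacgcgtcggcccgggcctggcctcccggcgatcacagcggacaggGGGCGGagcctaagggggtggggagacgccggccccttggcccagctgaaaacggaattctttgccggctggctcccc
CDKN1B: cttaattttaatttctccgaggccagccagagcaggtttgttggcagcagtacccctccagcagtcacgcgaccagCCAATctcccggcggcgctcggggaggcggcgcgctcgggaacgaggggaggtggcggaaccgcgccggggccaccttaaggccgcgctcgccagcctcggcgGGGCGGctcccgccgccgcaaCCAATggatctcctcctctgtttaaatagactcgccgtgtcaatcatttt
CDKN2C: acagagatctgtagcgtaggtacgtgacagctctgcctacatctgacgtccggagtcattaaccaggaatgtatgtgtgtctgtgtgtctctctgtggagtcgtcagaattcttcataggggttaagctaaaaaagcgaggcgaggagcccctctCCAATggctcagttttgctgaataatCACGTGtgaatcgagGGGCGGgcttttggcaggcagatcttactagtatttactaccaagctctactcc
The CDKN2B window held 2 GC boxes and no CCAAT box, and the CDKN1B window held 1 GC box between 2 CCAAT boxes. The printed CDKN2C window carried 1 motif of each kind. Of the CDKN2C windows not printed, 1 held 5 GC boxes and 1 held a single E-box, with no other motif in either. The CDKN2D window, which partly overlaps an annotated exon and is not printed, held 1 CCAAT box and 2 GC boxes. A GC box was present in 9 of the 12 member windows, against 42.6% of 35116 promoter windows of the same length. A CCAAT box was present in 5 of 12, against 32%, and an E-box in 2 of 12, both of CDKN2C, against 6.34%. The E2F words TTTCCCGC, TTTCGCGC, TTTGCCGC and TTTGGCGC, the cAMP response element TGACGTCA and the AP-1 site TGANTCA were in none of the 12 windows, against 2.79%, 1.65% and 6.57% of all windows. These letters are descriptions of the windows, several of which belong to the same gene.

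The INK4 genes held most of the inhibitor RNA in these cells. CDKN2A encodes p16INK4a and, from another promoter and reading frame, the MDM2 inhibitor p14ARF, and its row does not separate these transcripts. Its level was 183, 190 and 177 TPM with CsiRNA, and 218, 210 and 200 TPM with NEAT1siRNA. All 3 NEAT1siRNA values lay above all 3 CsiRNA values, but the log2 fold change of 0.19 (SE 0.08, 95% confidence interval 0.02 to 0.37) had an adjusted p of 0.124 from limma. It was past the threshold in 6 of 17 other settings, each of which rescaled the libraries or removed a trend in them. Among these was median centring of the libraries (adjusted p = 0.021 from limma, log2 fold change 0.25). CDKN2A was not past it in the settings that kept the TPM scale. These include the 6 with a library left out, where the adjusted p reached 0.324 without NEAT1siRNA replicate 1.

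CDKN2B encodes p15INK4b, an inhibitor known as a target of TGF-β signalling, and lies beside CDKN2A on chromosome 9. It was measured at 17.8, 16.4 and 16.0 TPM with CsiRNA and at 23.7, 30.1 and 25.4 TPM with NEAT1siRNA. The groups did not overlap, and the lowest NEAT1siRNA library still lay above the highest CsiRNA library. The mean went from 16.7 ± 0.976 to 26.4 ± 3.34 TPM (SD, n = 3 each), 1.58 times the control. On the log2(TPM + 1) scale CDKN2B rose by 0.62 (SE 0.10, adjusted p = 9.59e-05 from limma), the largest rise among the members.

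CDKN2C encodes p18INK4c, an inhibitor that restrains CDK4 and CDK6 during differentiation. Its level was 80.2, 77.8 and 73.0 TPM in CsiRNA cells and 103, 112 and 99.4 TPM in NEAT1siRNA cells. Again the groups were separate, and CDKN2C rose by 0.44 on the log2(TPM + 1) scale (SE 0.09, adjusted p = 0.0013 from limma), with a mean 1.36 times the control. CDKN2D encodes p19INK4d, the INK4 member with the lowest level here, and was measured at 1.18, 1.65 and 1.26 TPM with CsiRNA and 2.31, 2.01 and 1.58 TPM with NEAT1siRNA. The NEAT1siRNA replicate 3 value lay below that of CsiRNA replicate 2, so the groups overlapped. CDKN2D rose by 0.33 (SE 0.11, adjusted p = 0.0454 from limma), on 29 to 61 recovered reads per library. This call was lost in 7 of 16 other settings, among them without CsiRNA replicate 1 (adjusted p = 0.196), without CsiRNA replicate 3 (0.106) and without NEAT1siRNA replicate 1 (0.166), and under quantile normalization (0.0537). By voom on recovered reads its log2 fold change was 0.58 (adjusted p = 0.0570).

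**Figure D1:**
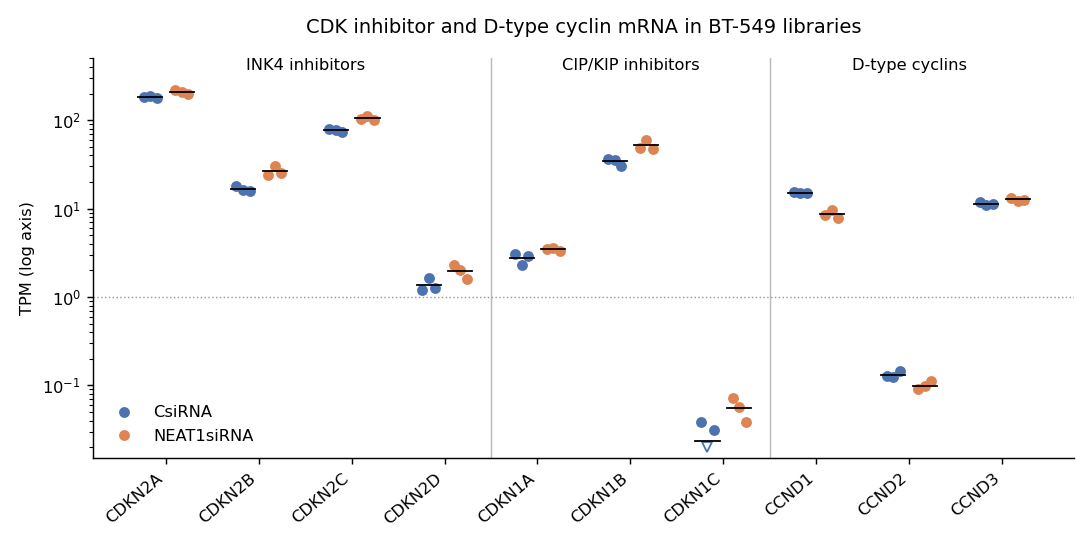
TPM of each of the 10 members in the 6 libraries, on a log axis, with CsiRNA and NEAT1siRNA libraries side by side and a black line at each group mean. The dotted line marks 1 TPM, the limit for testing, and the open triangle stands for CsiRNA replicate 2 at 0 TPM of CDKN1C. CDKN2B, CDKN2C and CDKN1B libraries separate upward and CCND1 libraries downward, while CDKN2D libraries overlap.

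Summed over the 4 INK4 genes, the level was 278 ± 9.68 TPM with CsiRNA and 343 ± 14.4 TPM with NEAT1siRNA (SD, n = 3 each). CDKN2A accounted for 64.8%, 66.4% and 66.2% of this sum with CsiRNA, and for 62.9%, 59.2% and 61.3% with NEAT1siRNA. Its share was thus lower in every NEAT1siRNA library, since CDKN2B and CDKN2C went up by a larger factor. There were 0.0977, 0.0864 and 0.0903 CDKN2B transcripts per CDKN2A transcript with CsiRNA, and 0.109, 0.143 and 0.127 with NEAT1siRNA. This ratio, which cancels the scaling of a library, did not overlap between the groups. It does not cancel a trend on transcript GC content, which was 44.2% for CDKN2B and 58.2% for CDKN2A.

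The CIP/KIP family was represented almost wholly by CDKN1B, which encodes p27KIP1, an inhibitor of cyclin E-CDK2 that accumulates in quiescent cells. CDKN1B was measured at 36.8, 35.5 and 30.0 TPM with CsiRNA and at 49.1, 59.6 and 47.5 TPM with NEAT1siRNA. The groups did not overlap, and the mean went from 34.1 ± 3.6 to 52.1 ± 6.56 TPM (SD, n = 3 each), or 1.53 times the control. CDKN1B rose by 0.59 on the log2(TPM + 1) scale (SE 0.10, adjusted p = 0.00024 from limma). With no filter on TPM the same change had an adjusted p of 0.0505.

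CDKN1A encodes p21CIP1, an inhibitor known to be induced by DNA damage. It was low at 3.04, 2.30 and 2.94 TPM in CsiRNA cells, and 3.47, 3.54 and 3.35 TPM in NEAT1siRNA cells. Although the groups did not overlap, the log2 fold change of 0.25 (SE 0.10, 95% confidence interval 0.04 to 0.45) had an adjusted p of 0.0981 from limma. It was past the threshold in 5 of 16 other settings, each of which rescaled the libraries or removed a trend in them. With a library left out, on the TPM scale, it was past it in 0 of 6. Without CsiRNA replicate 2 the log2 fold change was 0.16 (adjusted p = 0.464 from limma). Per CDKN1A transcript there were 12.1, 15.5 and 10.2 CDKN1B transcripts with CsiRNA and 14.2, 16.8 and 14.2 with NEAT1siRNA, and these ranges overlapped.

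CDKN1C encodes p57KIP2 and is an imprinted gene expressed from the maternal allele. It was close to absent, with 3, 0 and 3 recovered reads with CsiRNA and 6, 5 and 3 reads with NEAT1siRNA. No value reached 0.1 TPM, and with no filter on TPM the log2 fold change of CDKN1C was 0.045 and did not pass the threshold (adjusted p = 0.301 from limma). The 3 CIP/KIP genes together had 36.9 ± 3.53 TPM with CsiRNA and 55.6 ± 6.64 TPM with NEAT1siRNA (SD, n = 3 each), of which CDKN1B made up 91.0% to 93.9% and 93.3% to 94.3%.

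CCND1, which encodes cyclin D1, was the D-type cyclin that was called. It was measured at 15.3, 14.8 and 14.9 TPM with CsiRNA, and 8.46, 9.72 and 7.82 TPM with NEAT1siRNA. Every NEAT1siRNA library lay well below every CsiRNA library, and the CsiRNA libraries were within 1 TPM of one another. The mean after NEAT1siRNA was 57.7% of the control, and CCND1 fell by 0.73 on the log2(TPM + 1) scale (SE 0.10, adjusted p = 8.5e-06 from limma).

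CCND3 encodes cyclin D3, which can also activate CDK4 and CDK6. Its level was 12, 11.0 and 11.1 TPM with CsiRNA and 13.2, 12.2 and 12.7 TPM with NEAT1siRNA. The groups were separate by a small margin, with a log2 fold change of 0.15 (95% confidence interval -0.04 to 0.34, adjusted p = 0.305 from limma), and the interval includes 0. CCND2 encodes cyclin D2 and stood at 17, 17 and 24 recovered reads with CsiRNA and 13, 15 and 15 reads with NEAT1siRNA, or 0.132 ± 0.0110 and 0.0995 ± 0.0105 TPM (SD, n = 3 each). All 3 NEAT1siRNA values of CCND2 in TPM lay below all 3 CsiRNA values. CCND2 was too low for the main test, and with no filter on TPM its log2 fold change was -0.042 (adjusted p = 0.256 from limma).

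**Figure D2:**
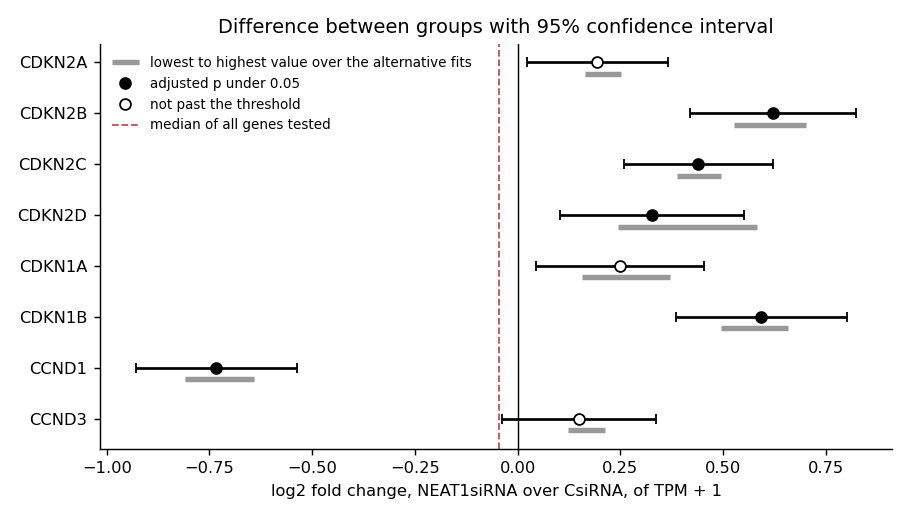
Difference between NEAT1siRNA and CsiRNA on the log2(TPM + 1) scale for the 8 tested members, with points for the estimate, thin bars for the 95% confidence interval, filled points for an adjusted p under 0.05, grey bars for the range of the estimate over the other settings and a dashed line at the median of all genes tested. CDKN2B at 0.62 and CDKN1B at 0.59 lie highest and CCND1 at -0.73 lowest, and the interval of CCND3 crosses 0.

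The order of the D-type cyclins was exchanged between the groups. CCND1 held 55.9%, 57.2% and 56.9% of D-type cyclin TPM with CsiRNA, and 38.9%, 44.1% and 38.0% with NEAT1siRNA. CCND3 was therefore the more abundant D-type cyclin mRNA in each NEAT1siRNA library, by 2.53 to 4.85 TPM, and the less abundant in each CsiRNA library. Summed D-type cyclin mRNA was 26.5 ± 0.771 TPM with CsiRNA and 21.5 ± 0.773 TPM with NEAT1siRNA (SD, n = 3 each), a smaller difference than that of CCND1 alone.

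Ratios between members do not depend on how a library was scaled, but a trend on transcript GC content does not cancel in them. Per D-type cyclin transcript there were 11.7, 12.5 and 11.5 inhibitor transcripts with CsiRNA and 18.4, 18.9 and 18.3 with NEAT1siRNA, a ratio of means of 1.56. Per CCND1 transcript there were 2.40, 2.39 and 2.02 CDKN1B transcripts with CsiRNA and 5.80, 6.13 and 6.08 with NEAT1siRNA. Neither ratio overlapped between the groups. These are ratios of mRNA, and protein, binding and kinase activity were not measured in these libraries. No test was run on the ratios, which are given as values.

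**Figure D3:**
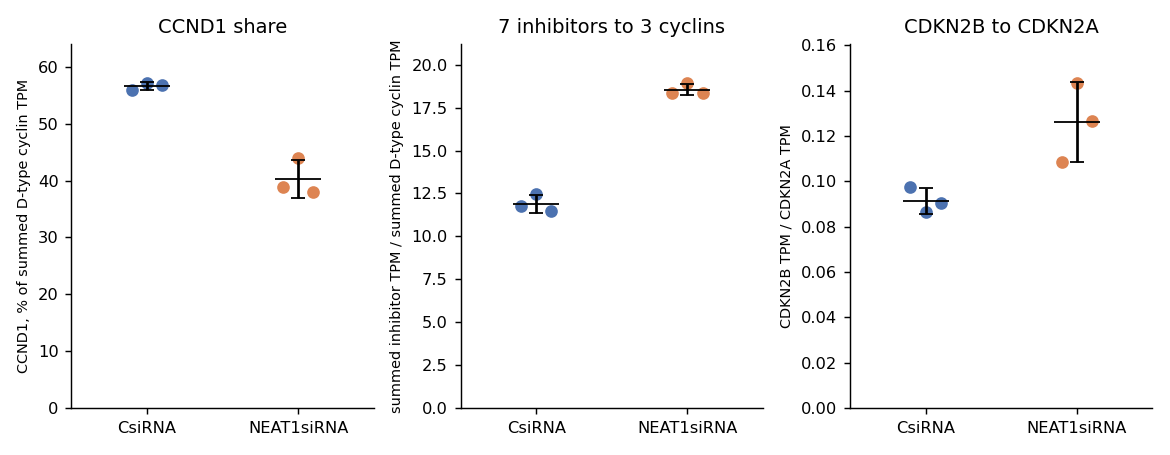
Ratios between the members' TPM in each of the 6 libraries, with a point per library, a horizontal line at each group mean, bars for the SD (n = 3) and linear axes that start at 0. The share of CCND1 in D-type cyclin TPM (left, in percent) is lower in every NEAT1siRNA library, and the ratios of summed inhibitors to summed D-type cyclins (middle) and of CDKN2B to CDKN2A (right) are higher in every one.

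CDKN2A and CDKN2B lie side by side on the minus strand of chromosome 9 in GRCh38, from 21967752 to 21995301 and from 22002903 to 22009305. CDKN2B-AS1, also called ANRIL, lies on the plus strand from 21994139 to 22128103, overlapping the start of CDKN2A and the whole of CDKN2B, and is known for recruiting Polycomb proteins to this locus. Its level was 2.03 ± 0.283 TPM with CsiRNA and 2.33 ± 0.129 TPM with NEAT1siRNA (SD, n = 3 each), which did not pass the threshold (log2 fold change 0.14, 95% confidence interval -0.06 to 0.35, adjusted p = 0.376 from limma). Beyond CDKN2A, the methylthioadenosine phosphorylase gene MTAP had a log2 fold change of -0.07 (adjusted p = 0.701 from limma). On the other side, DMRTA1, a DM-domain gene whose start lies 438 kb from that of CDKN2B, was measured at 1.86, 1.77 and 1.46 TPM with CsiRNA and 4.21, 5.10 and 3.91 TPM with NEAT1siRNA. DMRTA1 rose by 1.0 on the log2(TPM + 1) scale (SE 0.10, adjusted p = 2.36e-07 from limma), so that CDKN2B and DMRTA1 were the called genes among these 5. Whether they are under common control was not tested.

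**Figure D4:**
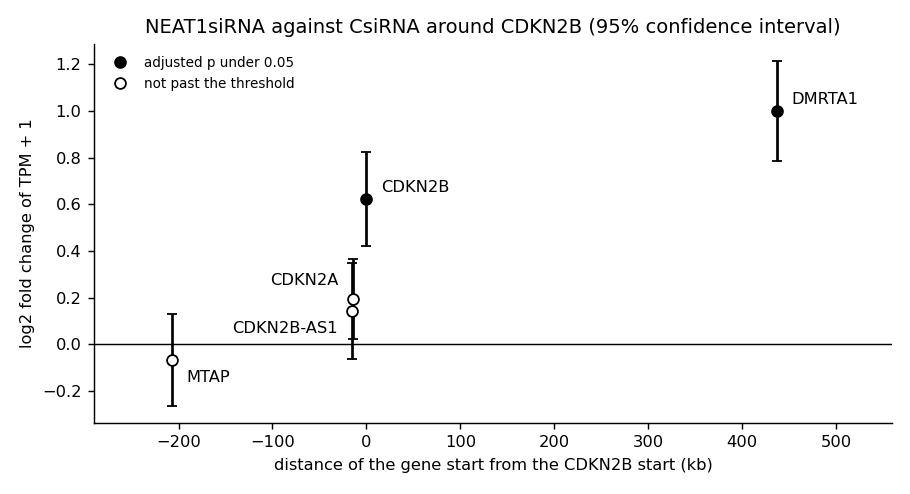
Difference between NEAT1siRNA and CsiRNA on the log2(TPM + 1) scale for 5 genes around CDKN2B, against the distance of each gene start from the CDKN2B start in kb, with bars for the 95% confidence interval. CDKN2B and DMRTA1 (filled) are past the threshold, whereas MTAP, CDKN2A and CDKN2B-AS1 (open) are not.

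Some member rows may share reads with genes on the opposite strand. CDKN2C shares 617 bases of its exons, or 20.4%, with an annotated gene that has no symbol. CDKN2A shares 593 bases, or 15.3%, with CDKN2B-AS1. CDKN1A shares 146 with the noncoding RNA DINOL, and CCND1 shares 497 with LTO1. The library kit keeps strand, but the strand setting of the gene counts is not given in the sources used here. Of the other neighbours looked at, FAF1 beside CDKN2C had a log2 fold change of -0.09 and PHLDA2 near CDKN1C had -0.17, with adjusted p of 0.588 and 0.300 from limma. KCNQ1OT1, KCNQ1, SLC22A18, H19, IGF2 and PANDAR, neighbours of CDKN1C or CDKN1A, had a mean under 1 TPM.

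The kinases that the members act on, and their other cyclins, were compared in the same way. Of the 10 tested genes of the CDK, cyclin E and cyclin A list, 2 were called, CDK6 and CCNH, both of which fell, and 8 did not pass the threshold. Over all genes tested, 14% were called, 8.98% with lower expression, and no test was run on the list. CDK6, the partner of D-type cyclins beside CDK4, was measured at 35.1, 30.4 and 28.3 TPM with CsiRNA and 22.9, 26 and 21.1 TPM with NEAT1siRNA, a log2 fold change of -0.41 (adjusted p = 0.0073 from limma). CCNH, the cyclin of the CDK-activating kinase, had a log2 fold change of -0.37 (adjusted p = 0.0080 from limma). Without CsiRNA replicate 1 the adjusted p was 0.0816 for CDK6 and 0.0795 for CCNH, and without NEAT1siRNA replicate 3 that of CDK6 was 0.0675. CDK4 stood at 79.1 ± 1.46 and 76.7 ± 0.722 TPM, CDK2 at 39.6 ± 0.926 and 40.5 ± 0.432 TPM, and CCNE1 at 6.36 ± 0.964 and 6.09 ± 0.317 TPM (SD, n = 3 each), with adjusted p of 0.798, 0.866 and 0.822 from limma.

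Downstream, the list of pocket proteins, E2F and DP factors had 13 tested genes, of which 1 rose and 1 fell. Over all genes tested, 4.99% were called higher and 8.98% lower. E2F2, an activating E2F, went from 2.55 ± 0.392 to 4.08 ± 0.296 TPM (SD, n = 3 each), a log2 fold change of 0.52 (adjusted p = 0.000905 from limma). E2F4, which represses with the pocket proteins in resting cells, had a log2 fold change of -0.30 (adjusted p = 0.0388 from limma). The E2F4 call was lost without CsiRNA replicate 1 (adjusted p = 0.162), CsiRNA replicate 2 (0.0810) or NEAT1siRNA replicate 3 (0.199), and under median centring (0.0570). RB1 mRNA stood at 5.24 ± 0.476 TPM with CsiRNA and 6.04 ± 1.33 TPM with NEAT1siRNA (SD, n = 3 each), with an adjusted p of 0.379 from limma. Its log2 fold change of 0.16 became 0.011 without NEAT1siRNA replicate 2. Whether these cells make a working RB1 protein was not examined.

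Among 12 tested genes for the turnover of inhibitors and cyclins and for CDK activation, 2 were called and both fell. The shares over all genes tested were 14% called and 8.98% called lower. CDC25A, the phosphatase that activates CDK2, went from 10.8 ± 0.981 to 7.94 ± 0.517 TPM (SD, n = 3 each), a log2 fold change of -0.40 (adjusted p = 0.0053 from limma). FBXO31, an F-box protein known to target cyclin D1 for degradation, had a log2 fold change of -0.30 (adjusted p = 0.0450 from limma). That call was lost without CsiRNA replicate 1 (adjusted p = 0.243), NEAT1siRNA replicate 2 (0.0548) or NEAT1siRNA replicate 3 (0.159).

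Of 13 tested proliferation markers, 0 were called by limma on TPM, against 14% of all genes tested. By limma-voom on recovered reads 0 were called, and 1 had an unadjusted p under 0.05 from limma on TPM. That gene was MKI67, named after its value was seen, which was measured at 58.4, 44.8 and 54.6 TPM with CsiRNA and at 49.5, 41.0 and 38.3 TPM with NEAT1siRNA (log2 fold change -0.29, adjusted p = 0.0725 from limma). It was past the threshold in 5 of 17 other settings, namely without CsiRNA replicate 2 (adjusted p = 0.0154), NEAT1siRNA replicate 1 (0.0089) or NEAT1siRNA replicate 2 (0.0298), with a mean of at least 5 TPM (0.0414) and with the replicate block (0.0367). With the trend on GC content and length removed, its log2 fold change was -0.12 (adjusted p = 0.215 from limma). The median log2 fold change of this list was -0.023. The share of cells in each phase of the cycle was not measured, and in these bulk samples fewer cells of a kind and less RNA per cell cannot be told apart.

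**Figure D5:**
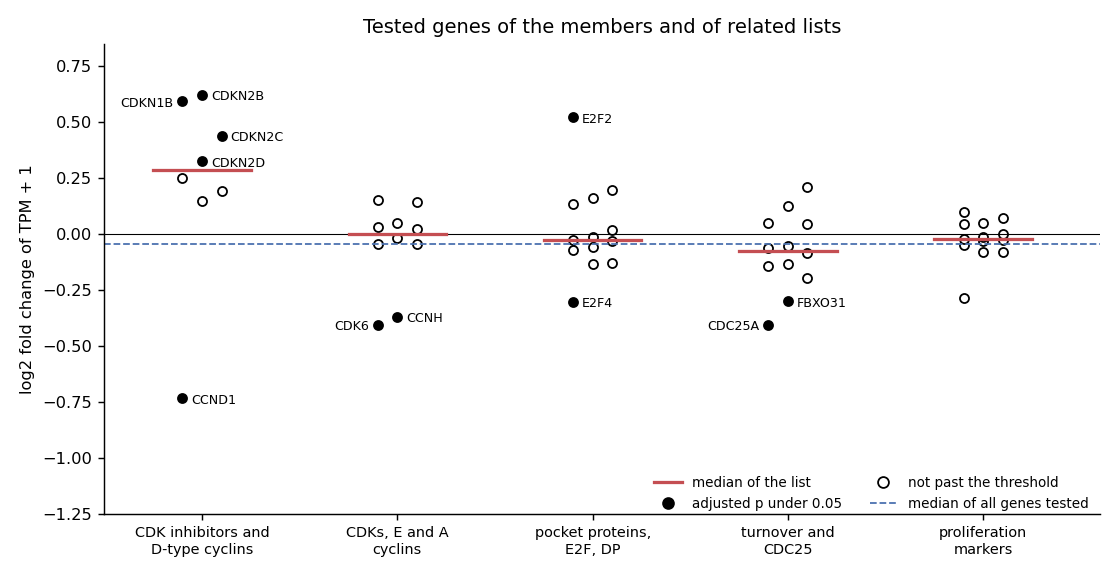
Log2 fold changes on the log2(TPM + 1) scale of the tested members and of 4 related gene lists, with a point per gene, filled at an adjusted p under 0.05 and named, a red line at the median of each list and a dashed line at the median of all genes tested (-0.044). The members have the highest median, 0.29, while the medians of the other lists lie between -0.074 and 0.0024.

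The genes most alike CCND1 and CDKN2B over the 6 libraries were sought among 5060 genes with a mean of at least 10 TPM, by Pearson correlation of log2(TPM + 1). For CCND1 these were the chemokine genes CXCL2 and CXCL1 and SHISA2, each with r of 0.99. CXCL1 stood at 240, 235 and 224 TPM with CsiRNA and at 121, 130 and 115 TPM with NEAT1siRNA, lower by a factor similar to that of CCND1. For CDKN2B they were MARCKS, RSRC1 and the interleukin receptor gene IL1R1, with r between 0.9957 and 0.9966. MARCKS stood at 95.4, 93.3 and 88.4 TPM with CsiRNA and at 125, 148 and 131 TPM with NEAT1siRNA, and NEAT1siRNA replicate 2 was the highest library for both MARCKS and CDKN2B. These correlations describe 6 libraries that share the group difference and their depth.

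The libraries held 15788181 to 20342550 recovered reads. In CsiRNA cells the mesenchymal gene VIM stood at 1046 ± 78.9 TPM, ESR1 at 0, ERBB2 at 6.19 ± 0.212 TPM (SD, n = 3 each) and leukocyte, endothelial and hepatocyte markers summed to under 0.1 TPM. The epithelial genes EPCAM, CDH1 and KRT8 had means under 1 TPM in both groups, and KRT18 stood at 1.35 ± 0.345 TPM with CsiRNA and 1.87 ± 0.282 TPM with NEAT1siRNA (SD, n = 3 each; log2 fold change 0.29, adjusted p = 0.0801 from limma). Of 4 mesenchymal markers, FN1 and CDH2 fell, with log2 fold changes of -0.47 and -0.34, and their part in the results was not tested. Between 64.4% and 68.1% of TPM fell on 4 short noncoding RNAs, and centring each library on its median moved the share of higher genes among all calls from 35.7% to 54.8%. Under that centring 7 members were called, 6 higher and 1 lower, the additional ones being CDKN1A and CDKN2A. Over all 10721 genes tested it called 2112, of which 1158 were higher, against 1498 and 535 in the main fit. The deviation of genes from their group mean also followed transcript GC content in some libraries. It did so most in NEAT1siRNA replicates 1 and 2, where the Spearman rho over 10424 genes was 0.68 and -0.73. In another fit, a trend on GC content and length was removed, estimated in each library from deviations from the mean of all 6 libraries. Such a removal can also take out part of a group difference. In that fit the log2 fold change was 0.68 for CDKN2B, 0.65 for CDKN1B, 0.47 for CDKN2C and -0.64 for CCND1, each still past the threshold.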

How the data were processed

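RNA-seq libraries of BT-549 cells with CsiRNA or NEAT1siRNA were analysed, 3 of each. The authors prepared TruSeq stranded mRNA libraries, aligned reads to GRCh38 with STAR and compared gene counts with DESeq2. The gene counter and the lengths behind the TPM are not given in the sources used here. The deposited table of TPM was used as given. From the authors' comparison table only the column of mean normalized counts (a deposited signal over all 6 libraries) was used, and its fold changes, test statistics and p-values were not.

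The comparison was made on log2(TPM + 1) for genes averaging at least 1 TPM, using limma 3.58.1 (R 4.3.3) with a trended eBayes, Benjamini-Hochberg adjustment over 10721 genes and a threshold of 0.05. The study used DESeq2 on counts, which TPM do not allow. TPM keep no depth, so reads were recovered by joining both tables. With a tolerance of 0.05, recovered values were whole for 99.8% of those of genes with a mean normalized count under 5 but for 16.5% of those of the most abundant genes, so reads of abundant genes are approximate. The fit was tested on simulated data.

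Genes were matched to the GENCODE annotation of GRCh38 by symbol (22278 current, 783 older, 2484 unmatched). Promoters came from RefSeq. The members and gene lists were chosen with earlier results of these data known. The genes named are all members, NEAT1, RB1, CDK4, CDK6, CDK2, CCNE1, up to 3 called genes with the largest change per list, the neighbours of members, and the 3 genes most alike each of the 2 members with the largest change. The result of 1 other named gene and of 1 gene list is not reported here. Settings varied were the pseudocount (0.1), the filter (none, or a mean of 5 TPM), quantile normalization, median centring, removal of 4 short noncoding RNAs, eBayes without trend, voom on recovered reads, a replicate block, removal of a GC content and length trend (splines with 4 degrees of freedom), and each library left out. Replicates are cultures of 1 line, so p-values do not cover the spread between lines or experiments. For each gene limma takes the spread partly from other genes, so a p-value does not rest on that gene's own replicates alone.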

Additional observations from a re-analysis of the deposited data

How the results depend on the processing

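No setting reversed the direction of a tested member, and CDKN2B, CDKN2C and CCND1 were past the threshold in 17 of 17 settings, CDKN1B in 16 of 17, CDKN2D in 9 of 16, CDKN2A in 6 of 17, CDKN1A in 5 of 16 and CCND3 in 4 of 17. The number of called members was 5, became 3 with no filter on TPM and 8 with the GC content and length trend removed (also 8 with the replicate block in that fit), and ran from 4 to 5 with a library left out. Without CsiRNA replicate 2 the SE was 0.120 for CDK4, 0.120 for CDKN2C and 0.122 for CCND1, against 0.085, 0.088 and 0.095 in the main fit. That fit used nearly the same spread for these genes, so its calls show little of how a gene's own replicates agree. The number of called genes, 1498, became 505 with no filter, 2474 by voom on recovered reads, 3467 with the GC content and length trend removed and 3391 with that and the replicate block. With a library left out it ran from 759 (without CsiRNA replicate 1) to 2083 (without NEAT1siRNA replicate 2), and was 838 without NEAT1siRNA replicate 3. The share of higher genes among all calls, 35.7%, became 49.4% under quantile normalization, 54.8% under median centring and 48.3% by voom. Same-numbered libraries deviated from their group means with correlations of -0.030, 0.25 and -0.11, and differently numbered ones with -0.40 to 0.40. Since deviations also followed GC content, these values cannot show whether same-numbered cultures were handled together. The labels do not state it. The replicate block gave 1640 called genes and 5 called members. CDK4 and CCNE1, which were not called in any setting, changed sign, to 0.014 and 0.011 under median centring, 0.0066 and 0.0050 by voom, and 0.017 and 0.016 with the GC content and length trend removed, with or without the replicate block, and with a library left out CCNE1 ran from -0.16 to 0.016, above 0 without CsiRNA replicate 1 or 2. With no filter on TPM the calls of CDKN2D, CDK6, CCNH, E2F2, E2F4, CDC25A and FBXO31 were also lost, with adjusted p from 0.0567 (E2F2) to 0.216 (CDKN2D). The causes of these differences were not tested. Depth limits CDKN2D, CCND2 and CDKN1C, with a mean of 44, 16.8 and 3.33 recovered reads per library, and the counts of genes without a filter or with a library left out come from more genes or fewer samples. Without a filter CDKN1C and CCND2 were also tested with 6.55 degrees of freedom, against a median of 25.17 over genes in the main fit. CDKN2B there kept its log2 fold change of 0.62 with an SE of 0.097, but its adjusted p was 0.0315 from limma.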
